A study of Mus musculus with 7 samples.

Results

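Keratin genes were read from Agilent arrays of the mouse forelimb at embryonic day 11.5. They were taken as every array feature, control features aside, whose gene name is Krt followed by a number and at most 1 letter. Genes named Krtap or Krtcap were left out by that rule. It gave 50 keratin genes with 64 probes, out of 36373 gene names with 55681 probes on the array. Of the 50 genes, 29 had a probe that at least 3 of the 7 arrays showed above background, and these were compared, 22 of them being above background on all 7 arrays. Of the other 21 genes, 16 were at background on all 7 arrays and 5 were above it on 1 or 2.

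The study set the apical ectodermal ridge (AER), a strip of thick epithelium along the rim of the limb bud, against surface ectoderm of the posterior limb. The embryos were of C57/Bl6 background, and no allele or agent is given for either group. The AER was microdissected and measured on 3 arrays (AER 1 to AER 3), and the ectoderm was measured on 4 (Ectoderm 1 to Ectoderm 4). Tissue of 2 to 3 mice was pooled for each replicate, and errors are between these arrays. It is not settled whether Ectoderm 2 and Ectoderm 4 are separate pools or 1 pool measured again: the submitters' names for them share a number, and they correlated more closely than any other arrays (r = 0.995 across genes). Counted as 1 sample, they end the call of Krt10 (-0.86, adjusted p = 0.0734) and of the second Krt8 probe (1.38, adjusted p = 0.0575), and no other keratin loses its call.

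Keratins are the intermediate filament proteins of epithelial cells. A filament is built from pairs of 1 acidic type I and 1 basic type II keratin, and the pair in use marks the kind of epithelium: Krt8 with Krt18 in simple epithelia, Krt5 with Krt14 in the basal layer of stratified epithelia, Krt1 with Krt10 above it, and hair keratins in the hair shaft. In the mouse the type II genes lie in a cluster on chromosome 15, together with the type I gene Krt18, and the other type I genes lie in a cluster on chromosome 11.

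Values are given as log2 processed signal minus the 75th percentile of the same array, so 0 is that percentile, and a difference is the AER mean minus the ectoderm mean on that scale. Differences were tested with limma over all 20840 genes with a kept probe, and a difference was called at an adjusted p under 0.05. Where the lower group was at background throughout, the fold is a lower bound for an assumed floor, written "at least". The floor is each array's dimmest signal above background, and a background value that lay above this floor was used as it was. The 75th percentile signal was 341 to 563 units in AER and 257 to 444 in ectoderm, 47.6% to 54.2% of probes were above background, and 0 keratin values were saturated. Repeated spots of 1 probe varied more on AER 1 and AER 2 (SD 0.181 and 0.183) than on the other arrays (0.060 to 0.064). Ectoderm 3 stood apart from the other ectoderm arrays for the ridge growth factor Fgf8, at 2.20 against -2.33, -1.42 and -1.40, while the AER arrays were at 5.84, 6.43 and 6.54. Of lists of other genes, 16 of 20 pan-epithelial genes were higher in AER, beside 7.02% of all genes tested. Of the limb mesenchyme genes 13 of 15 were lower, and of the muscle progenitor genes 7 of 7, beside 8.66% of all genes. The mean of the pan-epithelial list was 1.48 to 1.79 in AER and -0.25 to 0.24 in ectoderm. The mean of the mesenchyme list was 1.42 to 1.74 against 4.30 to 4.75, and that of the muscle list -4.14 to -2.36 against 1.07 to 2.18. The part of these lists in the keratin differences was not tested. In such bulk samples, fewer cells of a type and less RNA per cell cannot be told apart.

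The keratins split in both directions. Krt23, Krt35, Krt12, Krt8, Krt18 and Krt5 were higher in AER, and Krt15, Krt24, Krt33b and Krt10 were lower. Those 6 and 4 of 29 keratins stand beside 15.7% of all genes tested that differed (7.02% higher and 8.66% lower). The other 19 keratins did not pass the test. Of the 10 called, Krt23, Krt35 and Krt12 were kept through the AER arrays alone and Krt24 and Krt33b through the ectoderm arrays alone, so these counts are a description of the keratins kept. For those 5 the fitted difference rests on values not above background in 1 group, and the lower bound of the fold is the size given. Its floor is not a detection limit: on Ectoderm 3 it was -4.75, while Krt23 at -3.89 there still counted as background. The bound is taken from group means and carries no interval. Over the 32 kept keratin probes, 7 were higher and 4 lower, beside 15% of all probes that differed (6.97% and 8.03%). The median difference was 0.05 over the keratins and -0.08 over all genes. No overlap between AER and ectoderm arrays was found for 11 of the 29 keratins, 6 higher and 5 lower, beside 30.3% of all genes (12.5% and 17.8%). When each array was centred on the 20 pan-epithelial genes, which moves the median of all genes to -1.76, 3 keratins (Krt23, Krt35 and Krt12) were called higher and 24 lower, beside 0.998% and 94.9% of all genes (95.9% in either direction). Under that centring Krt18 turned to -0.85 and Krt5 to -0.90, and Krt8 was at 0.15.

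**Figure D1:**
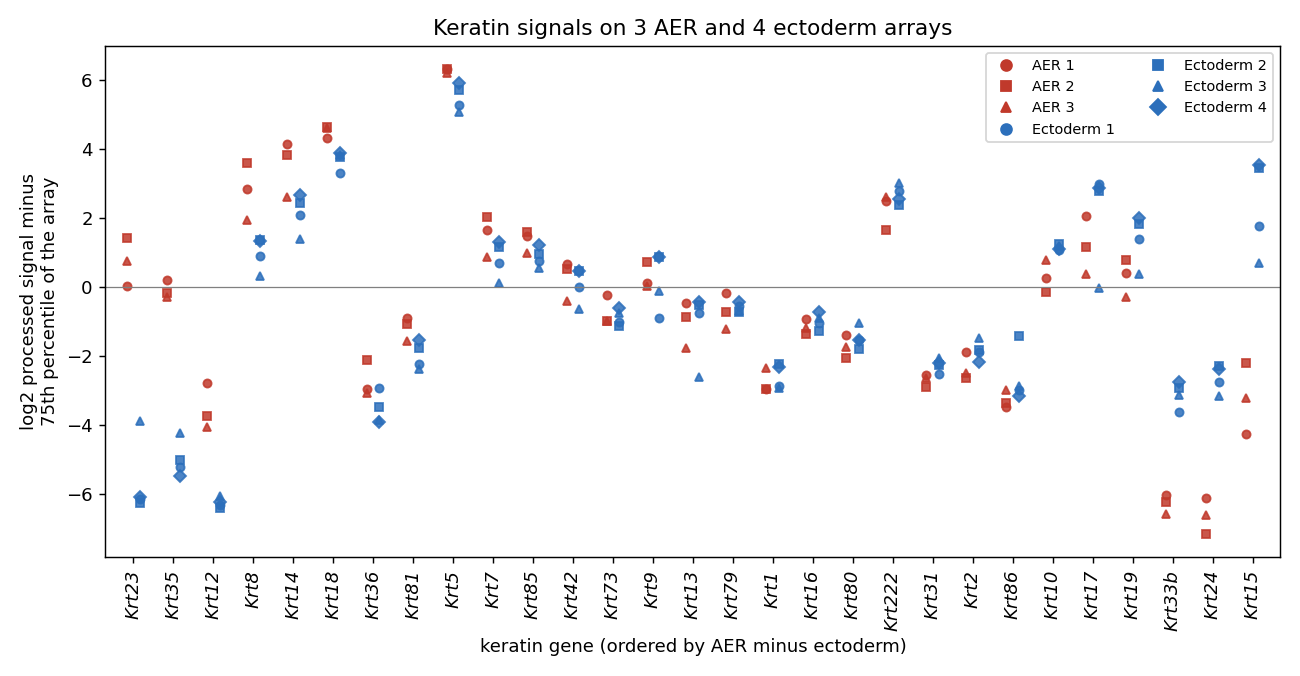
Signal of the 29 keratins with a kept probe on each array (log2 processed signal minus the array's 75th percentile, vertical axis), ordered by the AER minus ectoderm difference; red symbols are the 3 AER arrays, blue symbols the 4 ectoderm arrays, 1 point per array. Krt23, Krt35 and Krt12 lay at or above -4.05 on AER arrays with all ectoderm arrays at background, while Krt24 and Krt33b showed the opposite pattern.

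Of the simple epithelial keratins, the partners Krt8 and Krt18 were higher in AER (Krt8 at 0.15 and Krt18 at -0.85 with the pan-epithelial centring), and Krt7 and Krt19 did not pass the test. Krt8, the type II keratin of simple epithelia, was at 2.85, 3.60 and 1.95 on AER 1 to 3 and at 0.90, 1.37, 0.30 and 1.33 on Ectoderm 1 to 4. The groups were separate, with AER 3 and Ectoderm 3 lowest in their groups. The difference was 1.83, or 3.55-fold (95% CI 1.88 to 6.68; adjusted p = 0.0160), and a second Krt8 probe gave 1.26 (adjusted p = 0.0408 in the fit over probes). Within the first slide row, with 1 AER array, the first probe gave 2.00 (adjusted p = 0.0957), and within the second, with 1 ectoderm array, it gave 1.45 (adjusted p = 0.169); with single arrays these p-values say little. With the slide row as a block the first probe kept its call (1.74, adjusted p = 0.0469) and the second lost it (1.03, adjusted p = 0.105). The second probe lost its call without AER 2 (0.87, adjusted p = 0.0877), AER 3 (1.42, 0.0563), Ectoderm 1 (1.22, 0.0868), Ectoderm 2 (1.39, 0.0533), Ectoderm 3 (1.08, 0.0805) or Ectoderm 4 (1.36, 0.0629).

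Krt18, the type I partner of Krt8, was at 4.31, 4.65 and 4.62 on the AER arrays and at 3.30, 3.76, 3.84 and 3.90 on the ectoderm arrays. The groups did not overlap, and Ectoderm 1 was lowest. The difference was 0.83, or 1.78-fold (95% CI 1.32 to 2.39; adjusted p = 0.0192), and it reversed to -0.85 with the pan-epithelial centring. Without AER 2 it was 0.77 (adjusted p = 0.0533) and without AER 3 it was 0.78 (adjusted p = 0.0552), which ends the call, as did the slide row as a block (0.71, adjusted p = 0.0610).

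Krt7, another type II keratin of simple epithelia, was at 0.86 to 2.03 in AER and 0.10 to 1.30 in ectoderm, with a difference of 0.70 (95% CI -0.10 to 1.51; adjusted p = 0.215). Krt19, a type I keratin of simple epithelia and of the embryonic surface layer, was at 0.42, 0.79 and -0.29 on the AER arrays. On the ectoderm arrays it was at 1.40, 1.81, 0.38 and 2.01, so that only Ectoderm 3 lay within the AER range. The difference of -1.09 (95% CI -2.02 to -0.16) had an adjusted p of 0.109. Without Ectoderm 3 it was -1.43 (adjusted p = 0.0164). Krt20, a keratin of gut epithelium, was above background on 1 AER and 1 ectoderm array and was not tested.

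The basal keratins differed from one another. Krt15 was far lower in AER, Krt5 was slightly higher (-0.90 with the pan-epithelial centring), and Krt14 narrowly missed the threshold. Krt15, a type I keratin of basal keratinocytes, was at -4.28, -2.21 and -3.22 on AER 1 to 3, with 2 of the 3 above background. It was at 1.78, 3.45, 0.70 and 3.53 on Ectoderm 1 to 4, and so every ectoderm array lay far above every AER array. The difference was -5.60, or 48.6-fold lower (95% CI of the log2 difference -7.30 to -3.91; adjusted p = 0.00129), and it was -4.15 with normexp background correction. Krt15 was lowest among the ectoderm arrays on Ectoderm 3, and without that array its difference was -6.16 (adjusted p = 0.000376). Within the first slide row, where AER 1 is the single AER array, the difference was -6.26 (adjusted p = 0.0609). Its 1 probe lies at chr11:99993331-99993390 (mm9, minus strand).

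Krt5, the type II keratin of the basal layer, was at 6.32, 6.32 and 6.20 on the AER arrays and at 5.27, 5.73, 5.08 and 5.91 on the ectoderm arrays. The AER arrays were close to one another and all above the ectoderm arrays. The difference was 0.78, or 1.72-fold (95% CI 1.22 to 2.42; adjusted p = 0.0432), with the same 0.78 from a second probe (adjusted p = 0.0562 in the fit over probes), and the sign turned for both probes with the pan-epithelial centring (-0.90 for each). The call was lost without AER 1 (0.76, adjusted p = 0.0940), AER 2 (0.76, 0.0960), AER 3 (0.82, 0.0766), Ectoderm 1 (0.70, 0.103), Ectoderm 2 (0.86, 0.0628) or Ectoderm 3 (0.64, 0.0816), and with the slide row as a block (0.67, 0.123). The second probe gave 1.02 without AER 3 and was then called (adjusted p = 0.0183). Krt14, the usual type I partner of Krt5, was at 4.14, 3.84 and 2.61 on AER arrays and 2.09, 2.44, 1.39 and 2.66 on ectoderm arrays, with Ectoderm 4 just above AER 3. Its difference of 1.38 (95% CI 0.45 to 2.32) had an adjusted p of 0.0545. It was 1.85 without AER 3 (adjusted p = 0.0135) and 1.55 in the authors' processed values (adjusted p = 0.0293), and it turned to -0.29 with the pan-epithelial centring.

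The second Krt5 probe is shown because it shares much of its sequence with a probe of Krt6b, a stress keratin of the same cluster. Of 47 aligned bases 38 were identical, given here in capitals:

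Krt5: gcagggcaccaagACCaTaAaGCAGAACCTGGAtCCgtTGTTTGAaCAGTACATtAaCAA

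Krt6b: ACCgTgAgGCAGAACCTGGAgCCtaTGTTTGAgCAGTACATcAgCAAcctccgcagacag

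The Krt6b probe, at chr15:101509450-101509509 (mm9, minus strand), was at background on all 7 arrays, between -6.55 and -5.47. The Krt5 probe, at chr15:101542056-101542115 (mm9, minus strand), was at 1.02 to 1.77 in AER and 0.35 to 0.98 in ectoderm, above background on all of them.

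Of 5 keratins of activated or appendage epithelium, Krt16 and Krt17 were measured and neither passed the test, nor an unadjusted p of 0.05. Krt17, a type I keratin of early skin, periderm and appendages, was at 2.06, 1.15 and 0.36 on AER arrays. On ectoderm arrays it was at 2.99, 2.79, -0.03 and 2.86, so 3 ectoderm arrays lay above every AER array and Ectoderm 3 lay below them all. The difference was -0.96 (95% CI -2.66 to 0.73; adjusted p = 0.404) with Ectoderm 3 and -1.69 (adjusted p = 0.0227) without it. Krt16, a type I keratin of wounded and thick skin, was at -1.37 to -0.94 in AER and -1.27 to -0.73 in ectoderm (difference -0.17, 95% CI -0.58 to 0.24). Krt6a and Krt6b, type II partners of these keratins, were each above background on 1 AER array alone, and Krt75 on none.

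Keratins of suprabasal and mucosal layers gave 1 call higher (Krt12) and 2 lower (Krt24 and Krt10) among the 9 measured of 13. Of all genes tested, 7.02% were called higher and 8.66% lower. Krt12 was kept through the AER arrays alone and Krt24 through the ectoderm arrays alone. Krt24, a minor type I keratin of stratified epithelia, was at -6.14, -7.17 and -6.63 on AER arrays, all at background. It was at -2.77, -2.30, -3.18 and -2.39 on ectoderm arrays, all above background. It was at least 6.69-fold lower in AER, with a fitted difference of -3.99 (adjusted p = 5.99e-05). With normexp, which draws dim values together, that difference was -1.03 (adjusted p = 0.00222). Krt12, the type I keratin of the corneal epithelium, was at -2.80, -3.75 and -4.05 on AER arrays and at -6.41 to -6.08 on ectoderm arrays, the latter all at background. It was at least 2.77-fold higher in AER, with a fitted difference of 2.73 (adjusted p = 0.000335). With normexp it was 0.67 and missed the threshold (adjusted p = 0.0551). A second Krt12 probe was at background on all 7 arrays (-7.11 to -4.63), so the difference rests on 1 of 2 probes, at chr11:99276980-99277039 (mm9, minus strand).

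Krt10, the type I keratin of the first suprabasal layers, was at 0.25, -0.16 and 0.78 on AER arrays and at 1.07, 1.26, 1.19 and 1.10 on ectoderm arrays. The ectoderm arrays were tightly grouped and all above the AER arrays. The difference was -0.87, or 1.82-fold lower (95% CI 1.29 to 2.57; adjusted p = 0.0296). The call was lost without AER 1 (-0.85, adjusted p = 0.0728), AER 2 (-0.64, 0.0559), Ectoderm 1 (-0.90, 0.0581), Ectoderm 2 (-0.83, 0.0810), Ectoderm 3 (-0.85, 0.0616) or Ectoderm 4 (-0.88, 0.0711), and with the slide row as a block (-0.86, 0.0733). A second Krt10 probe was at background on all 7 arrays. Its type II partner Krt1 was at -2.97 to -2.36 in AER and -2.94 to -2.25 in ectoderm, with a difference of -0.16 (95% CI -0.71 to 0.39; adjusted p = 0.682).

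The other 5 measured keratins of these layers did not pass the test. Krt2, a type II keratin of upper epidermal layers, differed by -0.50 (95% CI -1.03 to 0.03), and its second probe was at background. Krt80, found in many differentiating epithelia, differed by -0.25 (95% CI -0.77 to 0.27) and Krt79, a keratin of the hair canal and sebaceous gland, by -0.10 (95% CI -0.64 to 0.44). Krt9, the keratin of palm and sole skin, differed by 0.11 (95% CI -0.88 to 1.09), with Ectoderm 1 at -0.90 and the other ectoderm arrays at -0.12 to 0.87. Krt13, the type I keratin of oral and oesophageal lining, differed by 0.05 (95% CI -1.19 to 1.29), with Ectoderm 3 at -2.62 and the other ectoderm arrays at -0.75 to -0.44. Without Ectoderm 3 that value was -0.46 (adjusted p = 0.394). The second Krt13 probe was at background on all arrays.

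Hair shaft keratins held differences of opposite sign: Krt35 was higher in AER and Krt33b lower, among 7 measured of 15. Of all genes tested, 7.02% were called higher and 8.66% lower. Krt35 was kept through the AER arrays alone and Krt33b through the ectoderm arrays alone. Krt35, a type I keratin of the hair matrix and cortex, was at 0.20, -0.17 and -0.30 on AER arrays and at -5.23, -5.04, -4.25 and -5.50 on ectoderm arrays. The ectoderm arrays were all at background, although Ectoderm 3 had the highest of the 4 values. Krt35 was at least 27.7-fold higher in AER, with a fitted difference of 4.91 (adjusted p = 2.76e-05), and with normexp the difference was 2.65. Krt33b, a type I keratin of the hair cortex, was at -6.04, -6.24 and -6.59 on AER arrays, at background, and at -3.62, -2.93, -3.14 and -2.76 on ectoderm arrays, above it. It was at least 4.88-fold lower in AER, with a fitted difference of -3.18 (adjusted p = 6.04e-05), and with normexp the difference was -0.84 (adjusted p = 0.00896). Each of the pair has 1 probe, at chr11:99953537-99953596 for Krt35 and chr11:99885054-99885113 for Krt33b (mm9, minus strand).

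The other 5 measured hair keratins, whose known site is the hair or nail, did not pass the test. Krt31 was at -2.90 to -2.57 in AER and -2.53 to -2.06 in ectoderm, which did not overlap, with a difference of -0.43 (95% CI -0.81 to -0.05; adjusted p = 0.118). Krt36 was at -3.08 to -2.13 in AER and -3.91 to -2.95 in ectoderm, with a difference of 0.82 (95% CI 0.13 to 1.52; adjusted p = 0.108). Its second probe was above background on 2 of 3 AER arrays and 0 of 4 ectoderm arrays. Krt86 differed by -0.66 (95% CI -1.56 to 0.24), with Ectoderm 2 at -1.44 and the other ectoderm arrays at -3.17 to -2.88. Krt81 was at -1.58 to -0.91 in AER and -2.37 to -1.54 in ectoderm, with a difference of 0.79 (95% CI 0.22 to 1.37; adjusted p = 0.0694) that was 0.99 without AER 3 (adjusted p = 0.0450).

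Krt81, the keratin named Krt83 in the file and Krt85 are closely related type II hair keratins, and their values must be read together. The Krt81 and Krt83 probes were 92.7% identical over 55 bases. The Krt81 probe lies at chr15:101290583-101290642 and the Krt83 probe at chr15:101263556-101263615 (mm9, minus strand). The file gives no position for the brighter Krt85 probe. The Krt83 probe, whose accession RefSeq now names Krt87, was at background on all 7 arrays (-7.05 to -5.97). The Krt81 probe and the brighter Krt85 probe were above background on all 7. By that probe Krt85 was at 1.49, 1.59 and 0.99 on AER arrays and at 0.76, 0.94, 0.55 and 1.22 on ectoderm arrays, with a difference of 0.49 (adjusted p = 0.166). A second Krt85 probe, at chr15:101346117-101346176, gave the opposite sign, with -1.84 to -1.23 in AER and -1.17 to -0.60 in ectoderm (difference -0.55; adjusted p = 0.116 in the fit over probes). The remaining Krt85 probe lies beside the Krt83 probe, at chr15:101261695-101261754, and was above background on 1 array. No direction is given for Krt85, and values of Krt81 and Krt85 are uncertain where transcripts of such near copies bind both probes.

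**Figure D2:**
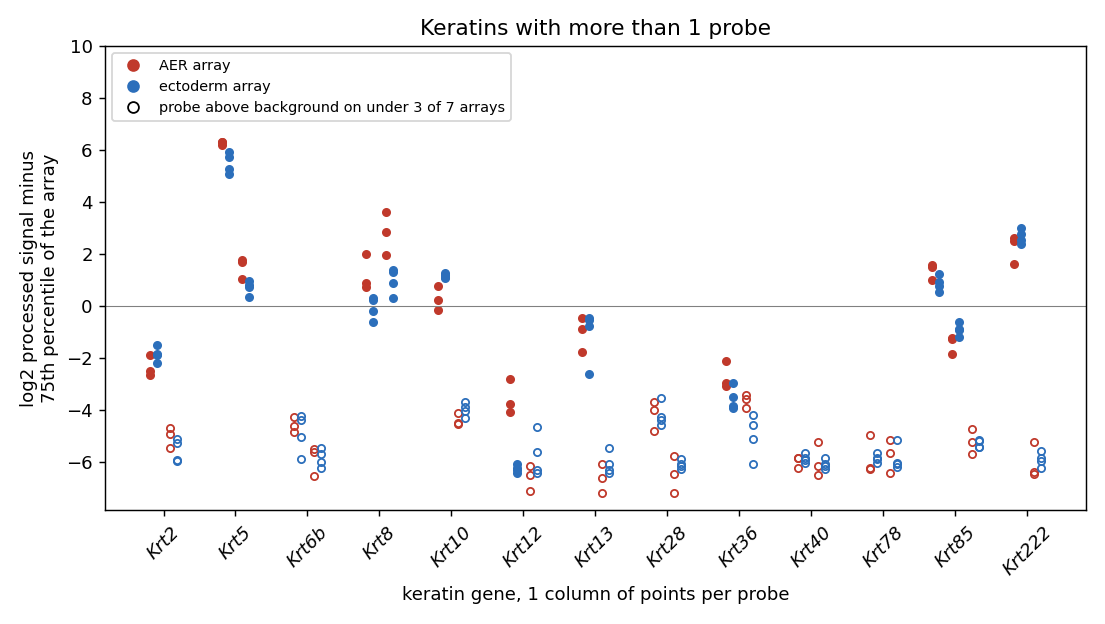
Signal of every probe of the 13 keratins with more than 1 probe (log2 processed signal minus the array's 75th percentile), with AER arrays in red and ectoderm arrays in blue; open circles are probes above background on under 3 of 7 arrays. The 3 keratins with a second kept probe are Krt5, Krt8 and Krt85, and the kept probes of Krt85 differ by 0.49 and -0.55.

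The inner root sheath keratins, type I and II keratins of the layer around the growing hair, were almost all undetected. Of 6 on the array, Krt73 was measured, with a mean of -0.74 ± 0.44 (SD, n = 3) on the AER arrays against -0.88 ± 0.24 (SD, n = 4) for ectoderm. Its difference was 0.14 (95% CI -0.39 to 0.67; adjusted p = 0.714). Krt28 was above background on 1 AER and 1 ectoderm array, and Krt71 on Ectoderm 4 alone, at -3.64. The other 3 were at background on all 7 arrays.

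Krt23, a type I keratin of less settled function that falls in none of these classes, had the largest fitted difference of the 29, against ectoderm values at background. Its 45.7-fold is a lower bound and the 48.6-fold of Krt15 a fitted value, so they do not rank these genes. With normexp the difference of Krt15 was the larger in size. Krt23 was at 0.02, 1.40 and 0.75 on AER arrays and at -6.15, -6.26, -3.89 and -6.09 on ectoderm arrays. The ectoderm arrays were all at background, with Ectoderm 3 well above the other three. Krt23 was thus at least 45.7-fold higher in AER, with a fitted difference of 6.32 (adjusted p = 0.000198). Without Ectoderm 3 the difference was 6.89 (adjusted p = 1.58e-05), and with normexp it was 3.51. Within the first slide row, with that single AER array, it was 5.45 (adjusted p = 0.0725). Its 1 probe lies at chr11:99339393-99339452 (mm9, minus strand).

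Krt42, known from the mouse nail, was at -0.42 to 0.67 in AER and -0.65 to 0.47 in ectoderm (difference 0.19, 95% CI -0.61 to 0.98; adjusted p = 0.746). Krt222, a keratin-like gene, gave 2 very unlike probes. One was at 1.64 to 2.62 in AER and 2.37 to 3.02 in ectoderm (difference -0.43, 95% CI -1.04 to 0.18; adjusted p = 0.306), and the other was at background on all 7 arrays. The bright probe, at chr11:99095480-99095539 (mm9, minus strand), holds a CA repeat of 22 bases, in capitals in this stretch of 30 of its 60 bases:

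Krt222: ttgtACACACACACACACACACACACccgg

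A run of 23 bases of the probe also occurs in a probe of another gene, Oacyl. The signal of the bright Krt222 probe is therefore uncertain as a measure of that gene.

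**Figure D3:**
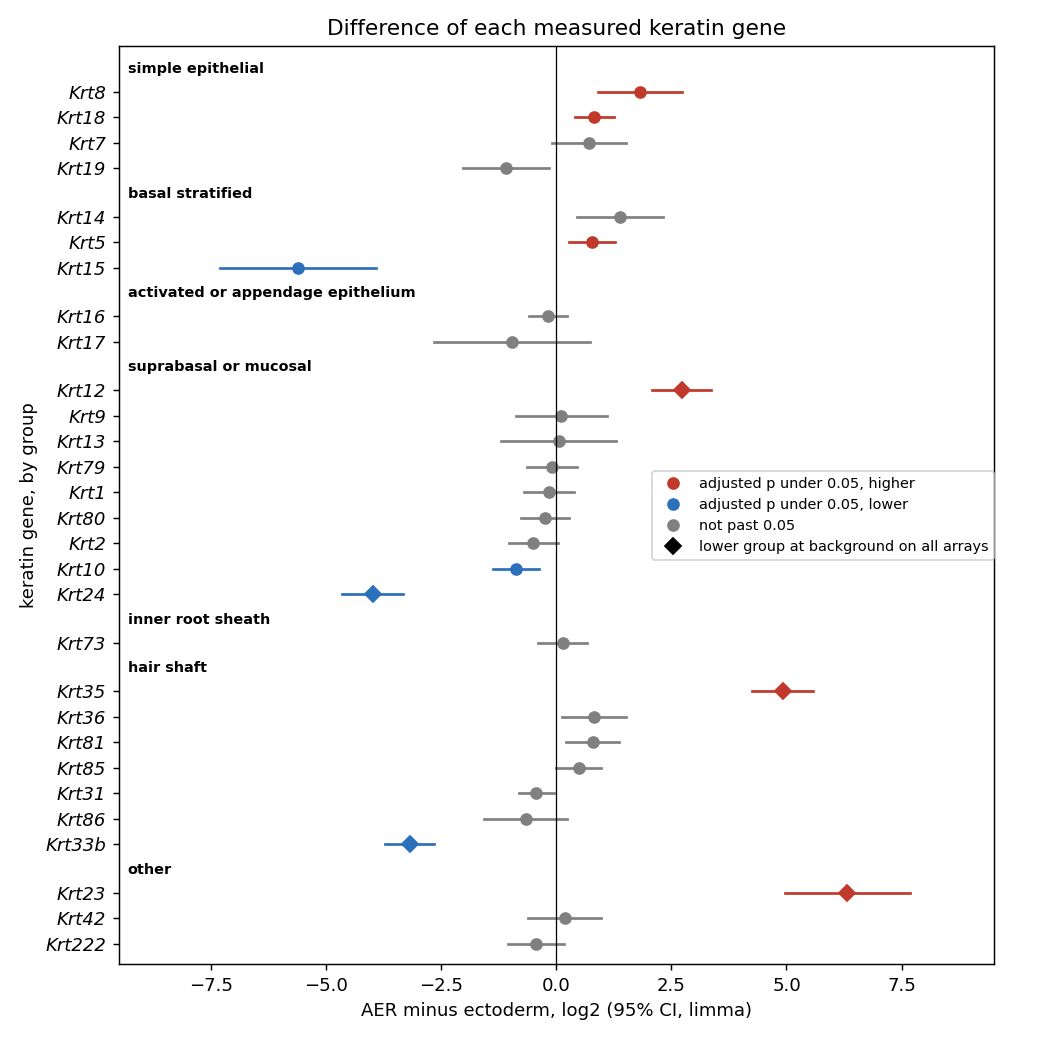
AER minus ectoderm difference (log2, horizontal axis) with 95% confidence interval from limma for the 29 measured keratins, grouped by known site; red is called higher, blue called lower, grey not past an adjusted p of 0.05, and diamonds have the lower group at background throughout. The calls higher for Krt8, Krt18 and Krt5 are small beside Krt23 and Krt35, and with the pan-epithelial centring Krt18 and Krt5 turn to -0.85 and -0.90.

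By gene type, type I keratins gave 4 calls higher and 4 lower among 18 measured of 28. Of these calls, Krt23, Krt35, Krt12, Krt24 and Krt33b were kept through 1 group alone. The counts by type and the signs along chromosome 11 are therefore a description of the keratins kept. Type II keratins gave 2 higher, Krt8 and Krt5, and 0 lower among 11 measured of 22 (limma). At an unadjusted p under 0.05 they gave 3 and 0, with no share of all genes counted at that threshold. Beside 7.02% of all genes called higher and 8.66% called lower, 0 calls lower of 11 is near the background. The difference between the types was not tested. The 7 calls on chromosome 11 lay among 17 measured genes of 27. Krt10 (-0.87) and Krt12 (2.73) were direct neighbours with calls of opposite sign. The call of Krt10 was lost with the slide row as a block, and a further Krt12 probe was at background. In the order of the probes along mm9, Krt33b, lower in AER, and Krt35, higher in AER, had 3 keratins between them: Krt34 and Krt32, without a kept probe, and Krt31, not past the test. Krt35, higher in AER, and Krt15, lower in AER, had Krt36 and Krt13 between them, and neither of these passed the test. Krt23 and Krt12, both higher in AER, had Krt20 between them, which had no kept probe. On chromosome 15 the neighbours Krt8 and Krt18 were both called higher (at 0.15 and -0.85 with the pan-epithelial centring), and the other call of that cluster was Krt5.

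**Figure D4:**
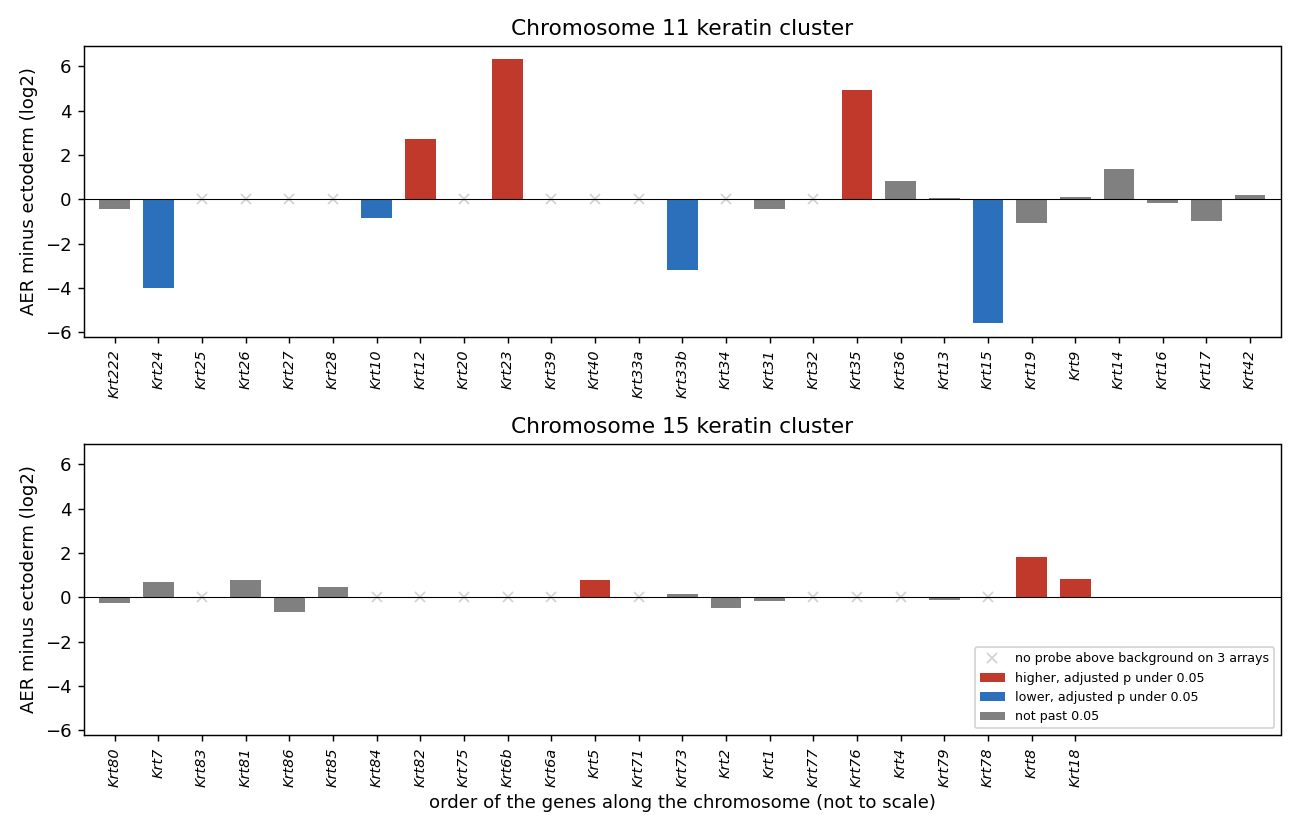
AER minus ectoderm difference (log2, vertical axis) of each keratin in its order along chromosome 11 (upper panel, 27 genes) and chromosome 15 (lower panel, 23 genes), not to scale; red is called higher, blue called lower, grey not past an adjusted p of 0.05, and crosses have no kept probe. Calls of opposite sign lie close to each other on chromosome 11; the calls higher of Krt18 and Krt5 on chromosome 15 reverse with the pan-epithelial centring.

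Promoter sequence was looked up for chromosome 11 keratins with opposite patterns. RefSeq entries (GRCm38.p6) were at hand for Krt23 and Krt12, higher in AER, and for Krt24 and Krt33b, lower in AER. Of the other calls on that chromosome, Krt35 and Krt15 had no entry, and Krt10 is not shown. The 250 bases before each transcription start are shown, all on the minus strand, with matches to the motifs named below in capitals. They lie at chr11:99493121-99493370 for Krt23, chr11:99422260-99422509 for Krt12, chr11:99285263-99285512 for Krt24 and chr11:100029869-100030118 for Krt33b.

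Krt23: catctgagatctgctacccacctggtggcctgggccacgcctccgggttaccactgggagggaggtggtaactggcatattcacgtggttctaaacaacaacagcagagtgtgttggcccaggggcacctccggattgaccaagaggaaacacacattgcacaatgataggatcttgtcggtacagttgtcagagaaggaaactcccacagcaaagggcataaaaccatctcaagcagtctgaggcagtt

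Krt12: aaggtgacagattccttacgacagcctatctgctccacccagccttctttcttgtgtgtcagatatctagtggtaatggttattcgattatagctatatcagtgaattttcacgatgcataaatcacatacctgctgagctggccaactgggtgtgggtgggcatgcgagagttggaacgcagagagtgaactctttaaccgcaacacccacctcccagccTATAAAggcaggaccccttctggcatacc

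Krt24: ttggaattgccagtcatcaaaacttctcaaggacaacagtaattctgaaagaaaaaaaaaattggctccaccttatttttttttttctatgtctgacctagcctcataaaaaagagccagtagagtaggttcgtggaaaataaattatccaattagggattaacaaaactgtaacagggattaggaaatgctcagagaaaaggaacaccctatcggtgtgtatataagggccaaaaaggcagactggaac

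Krt33b: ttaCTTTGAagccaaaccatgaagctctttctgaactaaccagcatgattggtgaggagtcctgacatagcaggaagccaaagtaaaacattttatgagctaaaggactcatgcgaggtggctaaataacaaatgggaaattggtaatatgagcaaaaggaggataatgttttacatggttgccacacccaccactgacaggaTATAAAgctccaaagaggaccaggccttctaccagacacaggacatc

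Short motifs were searched on both strands: the TATA box (TATAAA), an AP-2 site (GCCNNNGGC), a GC box (GGGCGG), a homeodomain core (TAATTA), a TCF/LEF core (CTTTGA) and an AP-1 site (TGANTCA). Counted from the transcription start, the TATA box began at -29 in Krt12 and at -47 in Krt33b, and the TCF/LEF core at -247 in Krt33b. No other match was found in these 4 windows. Of the 50 keratins, 34 had a promoter entry, with 35 entries in all. The TATA box was in 16 of the 35, against 12.4% of 32851 promoters of the same length. The GC box was in 2 of the 35, against 32.7% of all. The AP-2 site was in 4 (13.7% of all), the TCF/LEF core in 8 (13.8%), the homeodomain core in 5 (4.8%) and the AP-1 site in 2 (6.7%). Each match is a description of letters in a window and not of a bound site.

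Other intermediate filament genes, and genes listed as acting with keratins, were read from 3 lists. Genes listed as keratin filament linkers and modifiers gave 7 higher and 0 lower of 16 tested (limma). Beside them stand 7.02% and 8.66% of all genes at the same adjusted p. The list also holds Krtcap2 and Krtcap3, which were not called (limma, adjusted p = 0.291 and 0.795). At an unadjusted p under 0.05 the listed genes gave 10 and 0, with no share of all genes counted at that threshold. Their median difference was 1.01, and it turned to -0.67 with the pan-epithelial centring (2 higher and 8 lower, beside 0.998% and 94.9% of all genes, whose median was then -1.76). Dsp, which ties keratin filaments to desmosomes, was at 1.33, 3.59 and 1.91 on AER arrays and -0.85, -0.13, -1.09 and -0.31 on ectoderm arrays (difference 2.87, 95% CI 1.74 to 4.00; adjusted p = 0.00511). Trim29, a cytoplasmic protein of stratified epithelia, differed by 2.12 (adjusted p = 0.00251), the plakin Eppk1 by 1.67 (adjusted p = 0.00496) and Fam83h, which binds keratin filaments and is known from enamel formation, by 1.34 (adjusted p = 0.00177).

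Transcription factors known to act on keratin genes gave 10 higher and 0 lower of 20 tested (limma), beside the same 7.02% and 8.66% of all genes. At an unadjusted p under 0.05 they gave 13 and 0, again with no share of all genes counted there. Their median was 0.95, and it turned to -0.72 with the pan-epithelial centring (2 higher and 11 lower, beside 0.998% and 94.9%). Tfap2c, an AP-2 factor of surface ectoderm, was at 3.19, 3.47 and 3.55 on AER arrays and -0.25, 0.53, 0.33 and 0.50 on ectoderm arrays (difference 3.12, 95% CI 2.63 to 3.62; adjusted p = 4.73e-05). Klf4, a factor of skin barrier formation, differed by 1.86 (adjusted p = 0.000375), Grhl2, a factor of epithelial junction genes, by 1.79 (adjusted p = 0.000497) and Tfap2a, another AP-2 factor, by 1.84 (adjusted p = 0.000580). The pan-epithelial list used for the centring shares genes with this list, Tfap2a, Tfap2c and Grhl2 among them, so the centring is not independent of this list.

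Intermediate filament genes other than keratins gave 0 higher and 4 lower of 14 tested (limma), beside 7.02% and 8.66% of all genes. Their median was -0.51 against -0.08 over all genes. At an unadjusted p under 0.05 they gave 0 and 7, with no share of all genes counted at that threshold. Des, the filament protein of muscle, was at background on all AER arrays and at -1.58, -1.09, -2.72 and -1.11 on ectoderm arrays, at least 13.1-fold lower in AER (adjusted p = 0.000269). Of the neurofilament genes, Nefl differed by -1.66 (adjusted p = 0.00705) and Nefm by -1.89 (adjusted p = 0.0103). Bfsp2, known from the eye lens, differed by -1.91 (adjusted p = 0.0133). Des was kept through the ectoderm arrays alone. The muscle progenitor list was lower in AER for 7 of 7 genes, Des itself being 1 of them. The part of the other genes of that list in the value of Des was not tested. Markers of neural crest, Schwann cells and melanoblasts gave 2 higher and 0 lower of 5 (limma), beside the same 7.02% and 8.66%. At an unadjusted p under 0.05 they gave 3 and 1. Endothelial markers gave 0 calls of 7 (0 unadjusted) and erythroid markers 0 of 7 (2 lower unadjusted).

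**Figure D5:**
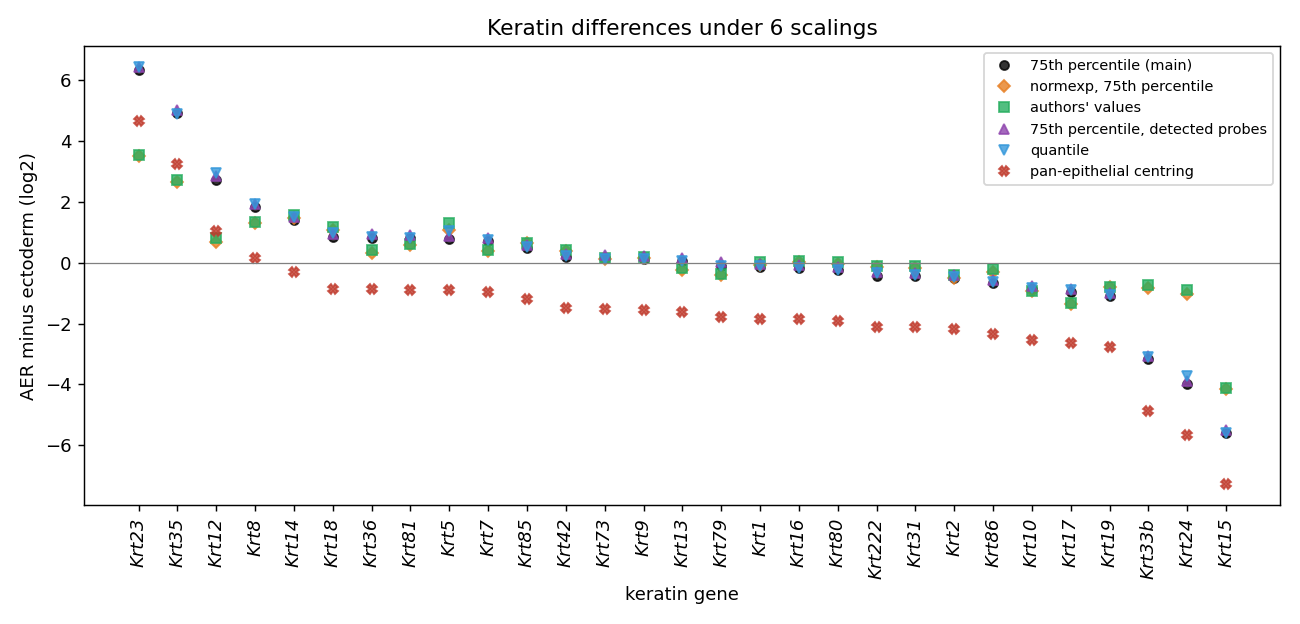
AER minus ectoderm difference (log2, vertical axis) of the 29 measured keratins under 6 ways of scaling the arrays, 1 symbol per scaling. Normexp and the authors' values draw Krt23, Krt35, Krt12, Krt24 and Krt33b toward 0, and centring on the 20 pan-epithelial genes moves all 29 values down, so that Krt23, Krt35 and Krt12 alone stay called higher and Krt18 and Krt5 turn lower.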

How the data were processed

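RNA was hybridised to 7 1-colour (Cy3) Agilent arrays, 75 ng of total RNA per array per the labels; all arrays lay on 1 slide. The deposited scanner files hold a processed signal, an intensity on a linear scale that the Agilent software had background-subtracted, per the file headers, and, as other columns per the file headers, flags per spot. The mean spot signal and background in the deposited files are intensity values too. The authors' deposited matrix is on a log2 scale and equals normexp correction (offset 50) with quantile normalization within 0.000108; the submitters' processing notes name limma. Probe positions are on mm9, per the file headers.

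Control and outlier-flagged spots were left out and spots of a probe averaged. Each array's 75th percentile was subtracted from the log2 signal. Probes well above background on at least 3 of 7 arrays were kept (50.8%), with 1 probe, the one of highest mean, per gene. Groups were compared with limma 3.58.1 in R 4.3.3 (lmFit and eBayes, two-sided; 5 residual and 3.50 prior degrees of freedom), with Benjamini-Hochberg adjustment over 20840 genes or, for second probes, 28296 probes. For a group at background on all arrays, a lower bound of the fold was taken from each array's dimmest signal above background. Where the gene's own value was higher than that signal, its own value was used. The script was tested on simulated data. The number of arrays limits the precision.

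The members and gene lists were chosen with earlier results of these data known. Every keratin with a kept probe is named, as are keratins above background on 1 or 2 arrays and, from each of the 3 lists of related genes, the 4 members of smallest p; Fgf8, Oacyl and keratins at background are named for other reasons given beside them. Alternatives covered background correction, scaling, the probe filter, the mean of probes, each array left out, the replicate number and slide row as blocks, slide rows apart, Ectoderm 2 and 4 averaged, and array weights. Python 3.11.15, pandas 2.3.3, numpy 2.4.6 and matplotlib 3.10.9 were used. The exon or untranslated part under a probe was not looked up, and some items are not reported here.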

Additional observations from a re-analysis of the deposited data

Results flagged for a closer look

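In 29 groups of 4 ectoderm values, 1 array stood far from the other three for 4 keratins by Dixon's test at its 95% level, a limit that chance passes in about 1 of 20 groups. For Krt23, Ectoderm 3 was at -3.89 and the others at -6.26 to -6.09, all of them at background. For Krt17, Ectoderm 3 was at -0.028 and the others at 2.79 to 2.99. For Krt13, Ectoderm 3 was at -2.62 and the others at -0.75 to -0.44. For Krt86, Ectoderm 2 was at -1.44 and the others at -3.17 to -2.88. Known AER genes also had their highest mean on Ectoderm 3 among the ectoderm arrays, at -0.01 against a lowest of -1.33, and its part in these values was not tested.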

How the results depend on the processing

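The counts of 6 keratins higher and 4 lower in AER were 4 to 7 and 3 to 5 under most alternatives. With the percentile over detected probes they were 8 and 4, and centred on pan-epithelial genes 3 and 24. Within the first slide row they were 2 and 2, and within the second 3 and 5. With the slide row as a block they were 4 and 3. Over probes, 7 higher and 4 lower became 3 and 26 with that centring, 4 higher without a filter on dim probes, 4 higher with the slide row as a block, 2 and 2 within the first row, and 3 higher within the second. Leaving out 1 array gave 4 to 6 higher and 3 to 5 lower genes, and 3 to 7 higher and 3 to 5 lower probes. With 1 AER array in the first row and 1 ectoderm array in the second, the lone array is assumed to vary like the others. The pan-epithelial centring reversed Krt14 (-0.29), Krt18 (-0.85), Krt36 (-0.86), Krt81 (-0.88), Krt5 (-0.90), Krt7 (-0.98), Krt85 (-1.19), Krt42 (-1.49), Krt73 (-1.54), Krt9 (-1.57), Krt13 (-1.63), the second Krt5 probe (-0.90) and the second Krt8 probe (-0.42); by construction it lowers every difference alike. Some differences called under neither setting, near 0 in the main fit except Krt17 (-0.96) and Krt85 (0.49), also changed sign. With normexp and the 75th percentile these were Krt13 (-0.24) and Krt16 (0.027). With normexp and quantile normalization, and in the authors' values, they were Krt13 (-0.16), Krt1 (0.0060), Krt16 (0.054) and Krt80 (0.012). The percentile over detected probes turned Krt79 (0.0056), and the mean of kept probes Krt85 (-0.031). The slide row as a block turned Krt9 (-0.14) and Krt79 (0.0036). The first row alone turned Krt79 (0.49), Krt16 (0.14), Krt80 (0.068) and Krt17 (0.14), and the second row alone Krt42 (-0.43), Krt73 (-0.37), Krt9 (-0.49) and Krt13 (-0.88). Array weights turned Krt42 (-0.17), Krt9 (-0.24) and Krt13 (-0.42). Leaving out 1 array gave -0.051 to 0.53 for Krt42, -0.12 to 0.27 for Krt73, -0.25 to 0.34 for Krt9, -0.46 to 0.42 for Krt13 and -0.36 to 0.15 for Krt79. The cause of these turns was not tested. Of the values for single keratins under the alternatives, 531 kept their direction and their side of the threshold, 35 lost and 27 gained a call, and 45 changed sign.

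To look for pairs, each array was taken as its deviation from its own group's mean, gene by gene. On these deviations same-numbered AER and ectoderm arrays correlated at -0.03, 0.19 and 0.13. Before the group means were taken off, the same arrays correlated at 0.955, 0.947 and 0.968. By the deviations, AER 2 and AER 3 correlated best with the ectoderm array of their own number, and AER 1 with Ectoderm 3 (0.18). These values do not settle whether the numbers are pairs, and the main fit did not take them as pairs. With the replicate number as a block, 9 keratins were higher and 4 lower (10 and 4 probes), and 2443 genes in all (11.7%) were called against 3268. The closest pair were Ectoderm 2 and 4, whose names share a number; averaging them gave 6 higher and 3 lower. Signals near background limit Krt12, Krt24 and Krt33b most, whose differences fell to 0.67, -1.03 and -0.84 with normexp; the share of all calls that were higher was 44.8% with the main scaling, 57.4% with the percentile over detected probes and 1.04% with the pan-epithelial centring.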

Other observations

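3 probes that carry another name in the files match a RefSeq keratin symbol and so lay outside the naming rule. Krt90, named 4732456N10Rik in the files, was at -2.88, -2.39 and -2.15 on AER arrays and at -6.25 to -5.88 on ectoderm arrays, all of the latter at background. It was at least 5.77-fold higher in AER, with a fitted difference of 3.60 (limma, adjusted p = 2.32e-05). Krt90 was kept through the AER arrays alone, so that difference rests on ectoderm values at background and is a description. It was singled out after its values were seen. The probes of Krt88 and of the pseudogene Krt72-ps were at background on all 7 arrays.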
